A study of Mus musculus with 8 samples.

Results

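Thyroid hormone signalling was described through 9 genes of the 57180 in the deposited count table, namely Dio3, Crym, Thra, Thrb, Rxra, Rxrb, Klf9, Ncoa1 and Ncor1. They were picked by symbol, each matched 1 row, and all 9 held enough counts to be tested. Isolated embryonic retinas had been profiled by 3′-Tag-Seq, which reads the 3′ end of each transcript. The mutant retinas (Rax-SmoCKO, 4 libraries) were Rax-Cre; Smo CKO/CKO and the control retinas (4 libraries) were Smo CKO/CKO without Cre, so that the conditional Smo allele was shared by all of them. Smo encodes the membrane protein that carries the Sonic hedgehog signal into the cell. The mice were on a CD1 background, and Rax-Cre is a BAC transgene driven by Rax sequences, which act in the early eye field. No library carried Rax-Cre with intact Smo, so an effect of the transgene and an effect of Smo loss cannot be told apart. The study dissected these retinas at E13.5, but the sample labels give an embryonic day that climbs by 1 per sample, from day 17 to 20 among Rax-SmoCKO samples and from day 13 to 16 among controls. All were taken as E13.5, and if the label held, age and genotype could not be told apart in any comparison.

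Thyroid hormone acts on a cell through a short chain of proteins. Transporters let it in, the type 2 deiodinase makes the active form T3 and the type 3 deiodinase, encoded by Dio3, destroys it, and the cytosolic protein encoded by Crym binds it. In the nucleus the receptors encoded by Thra and Thrb pair with retinoid X receptors and sit on their target genes with corepressors such as Ncor1 when the hormone is absent and with coactivators such as Ncoa1 when it is bound. Klf9 is a widely used target of the bound receptor. In the mouse retina Thrb is best known for its part in cone photoreceptor subtype choice, and Dio3 for shielding the immature tissue from hormone.

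Libraries held 3026843 to 4615667 counts in Rax-SmoCKO and 3017480 to 4328567 in control, so that 1 count was worth 0.216 to 0.333 CPM (counts scaled to the library size after TMM adjustment). Smo had 2.86 to 4.97 CPM in Rax-SmoCKO and 16.4 to 23.9 in control, and the Hedgehog target Gli1 had 0.72 to 4.10 and 11.8 to 28.1 CPM in the same groups, which fits the labels of all 8 libraries. How the 3′ tags of Smo lie relative to the deleted part was not checked. Some libraries stood apart. Control replicate 2 held 15935 CPM of 12 lens genes, whereas Rax-SmoCKO libraries held 6.67 to 377.3 and the other controls 8.29 to 9.83. Rax-SmoCKO replicates 2 and 3 held 1131 and 893 Y-linked counts and the other libraries at most 1. Xist had 2 and 0 counts in these replicates and 1389 to 3106 in the other libraries. No source used states whether a library is 1 embryo or a pool. The p-values measure the spread between these samples, which may be technical except between libraries of different sex.

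The 9 genes spanned a wide range of levels. A 3′ tag is read about once per transcript, so CPM does not grow with transcript length, although genes can still differ in how well their ends are captured. In Rax-SmoCKO the order by mean CPM was Ncor1 (551.2), Thra (213.3), Thrb (129.2), Ncoa1 (42.7), Rxrb (42.6), Klf9 (24.0), Dio3 (22.7), Rxra (18.0) and Crym (14.1). There the range of Dio3 overlapped those of Klf9, Rxra and Crym, and the ranges of Ncoa1 and Rxrb overlapped. In control the order was Ncor1 (555.4), Thra (189.1), Thrb (113.2), Rxrb (47.0), Dio3 (42.6), Ncoa1 (37.5), Klf9 (20.5), Rxra (15.2) and Crym (3.82). In control the range of Dio3 overlapped those of Rxrb and Ncoa1, and the ranges of Klf9 and Rxra overlapped.

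**Figure D1:**
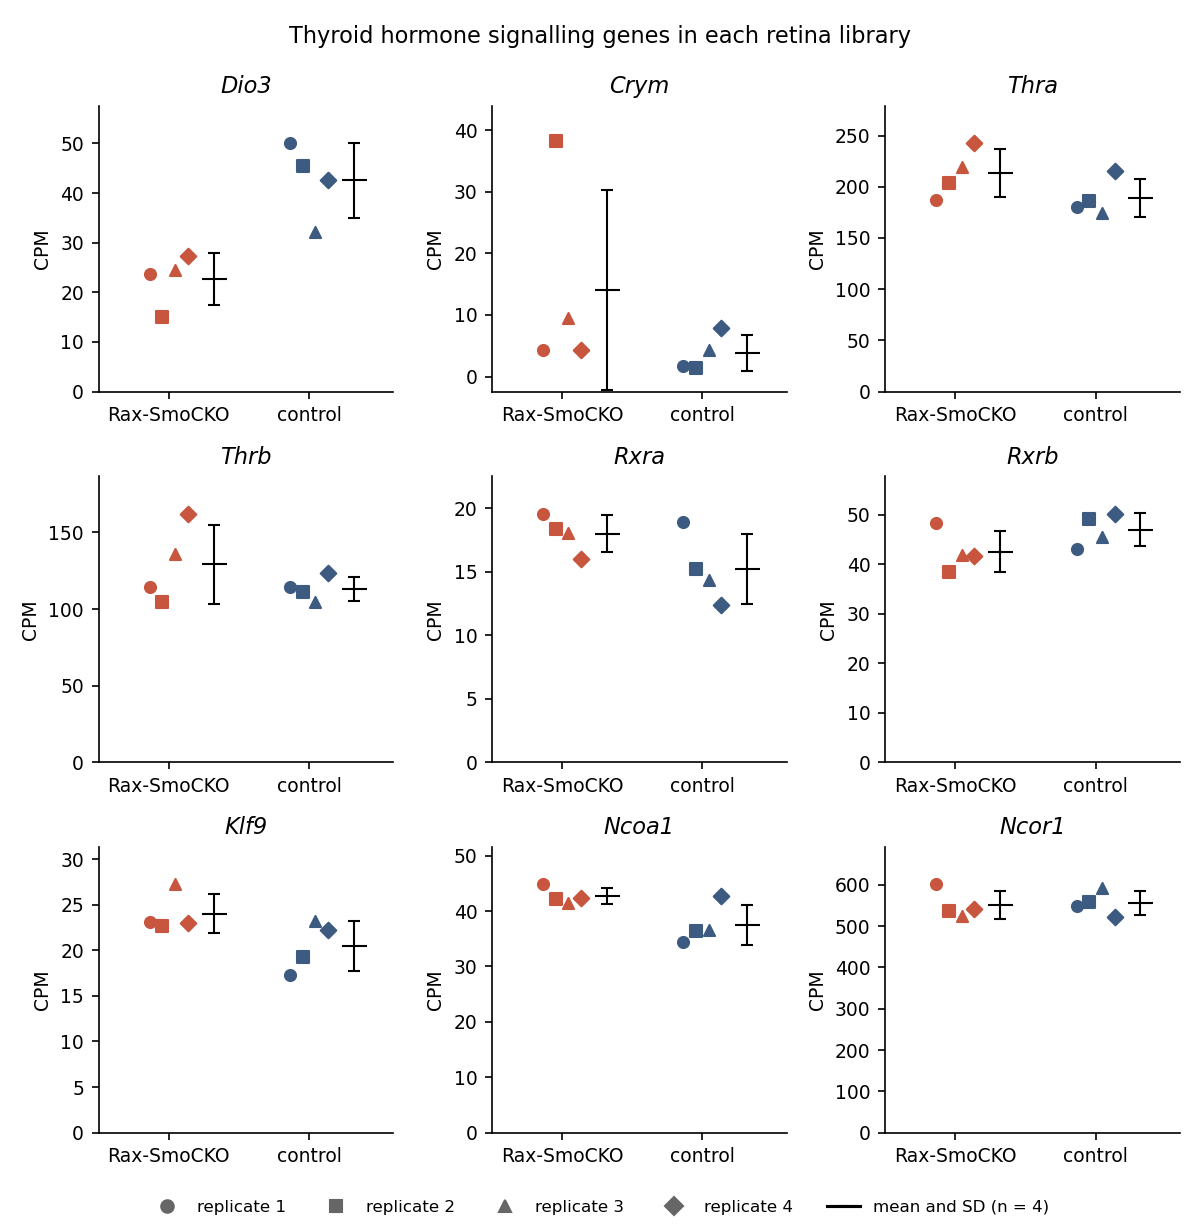
Level of each of the 9 genes in CPM (vertical axis, with its own scale per gene), with Rax-SmoCKO libraries in red on the left and control libraries in blue on the right of each panel; marker shapes give the replicate and bars the mean and SD (n = 4). Dio3 lies at 15.1 to 27.3 CPM in Rax-SmoCKO and at 32.2 to 50.1 CPM in control with no overlap, the other 8 genes overlap between the groups, and 1 Rax-SmoCKO library carries Crym at 38.2 CPM.

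Dio3 was the 1 gene of the 9 whose groups did not overlap. Its level was 23.6, 15.1, 24.5 and 27.3 CPM in Rax-SmoCKO replicates 1 to 4, against 50.1, 45.4, 32.2 and 42.7 CPM in control replicates 1 to 4. The highest Rax-SmoCKO library thus stayed below the lowest control library. Means were 22.7 ± 5.27 CPM in Rax-SmoCKO and 42.6 ± 7.57 CPM in control (SD, n = 4 each). The fitted level in Rax-SmoCKO was 0.53 of that in control (95% interval 0.41 to 0.68), which is a log2 ratio of Rax-SmoCKO to control of -0.92 with a standard error (SE) of 0.17. With Benjamini-Hochberg adjustment over all 14730 genes tested, edgeR's quasi-likelihood test gave an adjusted p of 0.0914, so that Dio3 did not pass the 0.05 threshold, although it ranked 25th by p. In all, edgeR called 14 genes, or 0.095% of those tested, and 0 of the 9 genes here. At an unadjusted p under 0.05 it gave 2 of the 9 higher (4.8% of all tested genes) and 1 lower (4.68%), which was Dio3. Groups lay apart in the lower direction in 3.03% of all tested genes. An exact 2-sided permutation test of the Dio3 CPM alone gave p = 0.0286, the smallest that 4 libraries against 4 allow. Any gene whose groups lie apart gets this value, so it only restates the lack of overlap. Among all tested genes, groups lay apart in 392 in the higher and 447 in the lower direction.

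The spread of Dio3 between libraries was wider than counting alone gives. A library held 85.5 Dio3 counts on average in Rax-SmoCKO and 155 in control, for which counting error is 10.8% and 8.03% of the mean. The observed spread was 23.2% of the mean in Rax-SmoCKO and 17.8% in control. The call turned on the test, on the use of a low-count filter, on a replicate term and on 1 library. EdgeR called Dio3 without a filter (adjusted p = 1.44e-07), where it called 289 of 27242 genes. With a replicate block it called Dio3 (adjusted p = 0.0472) among 38 of 14730 genes. DESeq2's Wald test called Dio3 (adjusted p = 0.000871) where it called 0.387% of tested genes, and limma-voom, which called 0.109%, did not (adjusted p = 0.0959). Without control replicate 3, the control with the least Dio3, the log2 ratio was -1.04 and edgeR's adjusted p was 0.0399. No other single library changed the call. Without Rax-SmoCKO replicate 2, the library with the least Dio3, the value was -0.76 (adjusted p = 0.0894). It was -0.72 (adjusted p = 0.12) without the 2 libraries richest in lens genes, control replicate 2 and Rax-SmoCKO replicate 2. It was -0.74 (adjusted p = 0.169) without the 2 with Y-linked counts, Rax-SmoCKO replicates 2 and 3. Each of these fits leaves out Rax-SmoCKO replicate 2, so they are not separate checks of lens tissue and sex.

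**Figure D2:**
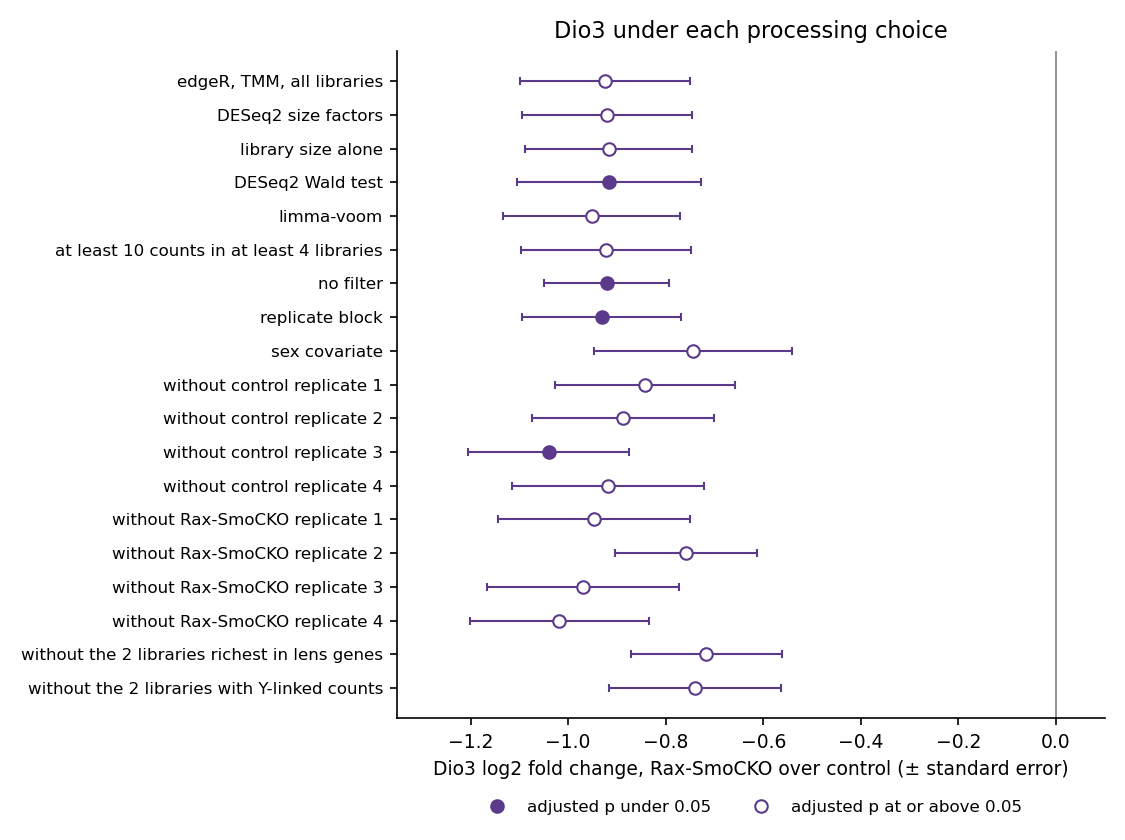
Log2 fold change of Dio3, Rax-SmoCKO over control, with its standard error (horizontal axis) under the main settings and each of 18 alternatives (rows); filled points have an adjusted p under 0.05. The estimate stays between -1.04 and -0.72 throughout, and 4 alternatives pass the threshold.

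Dio3 is a selenoprotein, in which a TGA codon inside the reading frame is read as selenocysteine at the catalytic site. The stretch around that codon is shown for the 3 deiodinase genes of the mouse because it is what marks a gene as a member of this family. GENCODE M21 on GRCm38 places the codon of Dio3 at chr12:110279739-110279741 on the forward strand, in codon 170 of 304. In Dio2 the annotation lists codon 130 and also codon 263 of 266 as selenocysteine, and the stretch around codon 130 is shown. Each line gives 45 bases of coding sequence, 5′ to 3′, with the selenocysteine codon in capitals.
Dio3: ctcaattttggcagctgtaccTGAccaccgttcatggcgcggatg
Dio2: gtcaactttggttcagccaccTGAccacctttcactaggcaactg
Dio1: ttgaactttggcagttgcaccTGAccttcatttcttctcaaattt
Over these bases Dio3 matched Dio2 at 28 of 45 positions and Dio1 at 26. The family members differed far more in abundance. Dio2, which makes T3, had 1, 2, 3 and 1 counts in Rax-SmoCKO and 0, 1, 1 and 2 in control. Dio1 had 0 counts in all 8 libraries. Dio3 was therefore the 1 deiodinase gene with enough counts to test, and at this depth nothing can be said of a change in the others.

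Dio3 lies on chromosome 12 from 110279068 to 110281097 of GRCm38, and no other annotated gene overlaps it. The window from 250 bases before to 50 bases after its RefSeq start (GRCm38.p6, chr12:110278980-110279279, forward strand) is printed because the levels of this gene lay apart between the groups. RefSeq's start lies inside the GENCODE gene. Capitals mark the TATA box (TATAAA), the CAAT box (CCAAT) and the GC box (GGGCGG), each searched on both strands.
Dio3: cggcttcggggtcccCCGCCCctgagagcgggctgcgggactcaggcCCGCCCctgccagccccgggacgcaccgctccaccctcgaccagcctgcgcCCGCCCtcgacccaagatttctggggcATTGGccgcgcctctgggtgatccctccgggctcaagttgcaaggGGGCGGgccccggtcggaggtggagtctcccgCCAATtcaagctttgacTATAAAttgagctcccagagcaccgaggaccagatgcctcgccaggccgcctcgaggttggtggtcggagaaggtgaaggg
The window held 69% G and C, 1 TATA box that begins 31 bases before the start, 2 CAAT boxes and 4 GC boxes, with no overlap among them. Of 32851 mouse promoter windows of the same length, 13.6% hold the TATA box, 37.4% the CAAT box and 35.7% the GC box. The consensus of the Hedgehog effector GLI, GACCACCCA, was not in this window and is in 0.253% of all windows. The receptor's core motif AGGTCA was not in it either and is in 16.3% of all windows. Of the 9 genes, 7 had windows in the RefSeq table, and GACCACCCA was in 0 of their windows. It was also absent from the windows of the Hedgehog targets Ptch1 and Hhip. These letters describe the window only.

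Dio3 was next set beside genes of the Hedgehog pathway in the same libraries. Gli1, Ptch1 and Hhip are switched on by the pathway. Relative to the control mean, Dio3 stood at 35.5% to 64.2% in Rax-SmoCKO and at 75.6% to 117.6% in control. Ptch1, the receptor for Sonic hedgehog, spanned 61.0% to 76.7% among Rax-SmoCKO libraries and 80.8% to 110.0% among controls. Gli1 spanned 3.47% to 19.9% among Rax-SmoCKO libraries and 57.1% to 136.3% among controls. EdgeR called Gli1 (adjusted p = 0.00438) but neither Ptch1 (adjusted p = 0.0679) nor Hhip (adjusted p = 0.172). Control replicate 3 was the lowest control for Dio3, Smo, Gli1, Ptch1 and Hhip alike, a feature noticed after the values were seen. Among all tested genes that library was the lowest control in 25.1%. The Rax-SmoCKO libraries showed no such shared order: Dio3 was lowest in replicate 2, Gli1 and Smo in replicate 1, Ptch1 in replicate 4, and Hhip in replicate 3.

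**Figure D3:**
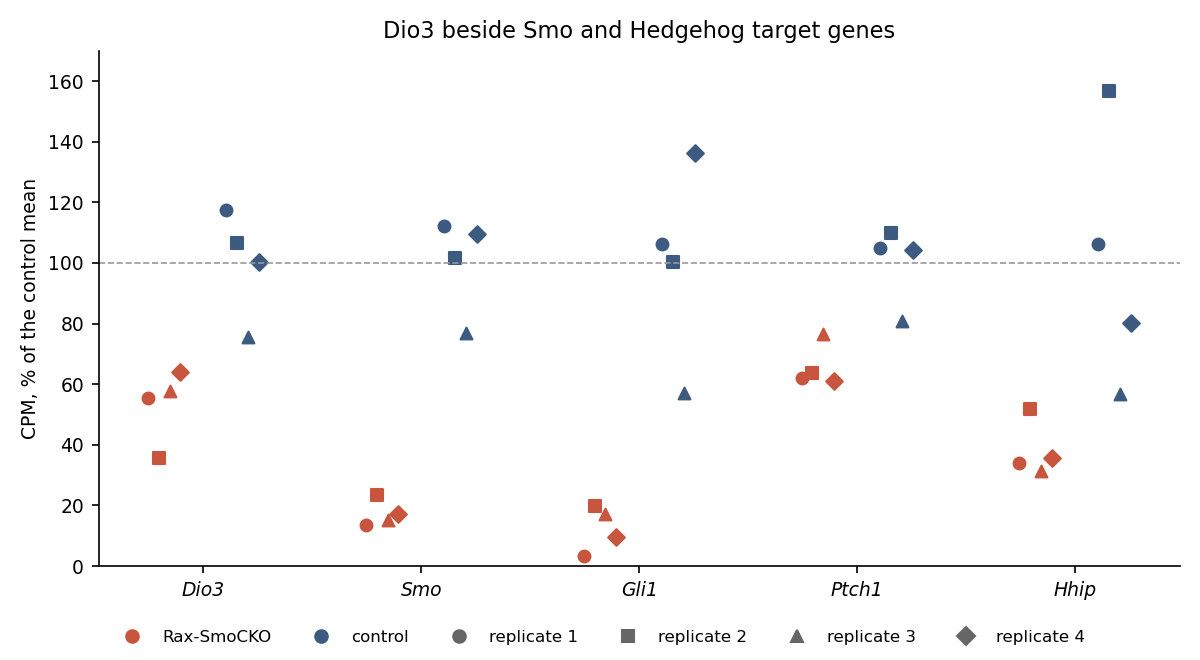
CPM as a percentage of the control mean (vertical axis) for Dio3, Smo and 3 Hedgehog target genes, with Rax-SmoCKO libraries in red to the left of control libraries in blue and marker shapes for the replicate. In each gene all Rax-SmoCKO points lie below all control points, and the triangle of control replicate 3 is the lowest control point, at 75.6% for Dio3 and 57.1% for Gli1.

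In bulk tissue, fewer cells of a type and less RNA per cell cannot be told apart. Dio3 was also counted against 6 marker genes of retinal progenitors (Lhx2, Sox2, Hes1, Sfrp2, Sox9 and Fgf15) within each library. This ratio cannot tell cell number from RNA per cell, because these counts do not identify the cells that hold Dio3. By in situ hybridization at E13.5 the study reports less Dio3 mRNA in Rax-SmoCKO retinas. The marker sums also differed too little between groups to change the Dio3 gap much. There were 4.31 to 7.46 Dio3 counts per 1000 progenitor counts in Rax-SmoCKO, against 8.24 to 12.3 in control. The groups did not overlap on this scale either. The progenitor genes summed to 3505 to 3891 CPM in Rax-SmoCKO and 3758 to 4076 in control, and all 6 had log2 ratios below 0, with a median of -0.11. A scale that needs no normalization between libraries is the number of receptor counts per Dio3 count. Thra and Thrb together gave 15.6 ± 3.32 counts per Dio3 count in Rax-SmoCKO (12.8 to 20.4) and 7.25 ± 1.28 in control (5.88 to 8.67; SD, n = 4 each). These ranges did not overlap, but the ratio holds the same Dio3 counts and so largely restates their gap. The log2 ratios of Thra and Thrb, 0.17 and 0.19, widen it slightly.

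Dio3os, a noncoding RNA gene read from the opposite strand just upstream of Dio3, did not pass the test. It had 7.40, 7.13, 6.74 and 9.0 CPM in Rax-SmoCKO replicates 1 to 4, against 9.95, 7.37, 9.20 and 8.42 CPM in control replicates 1 to 4, and the groups overlapped. The log2 ratio of Dio3os was -0.21 (SE 0.19), and edgeR gave an adjusted p of 0.775. The annotation places it from 110275385 to 110278172, with no overlap with Dio3. Within each library, Dio3 counts per Dio3os count ran from 2.12 to 3.64 in Rax-SmoCKO and from 3.50 to 6.16 in control. On this scale the ranges overlapped, unlike those against receptor and progenitor genes.

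The genes whose pattern was closest to that of Dio3 were sought among 11346 others with a mean of at least 20 counts. By Pearson's correlation of log2 CPM over the 8 libraries they were Zfp704 (r = 0.96), Rad21 (r = 0.96), Itprip (r = 0.96), Maea (r = 0.95) and Vapb (r = 0.95). The 8 points share the group difference. After each group's mean was taken away the same genes had r of 0.87, 0.89, 0.85, 0.80 and 0.87. These are descriptions of 8 libraries chosen as the top of many genes, and carry no test. Zfp704, a zinc finger gene, was called lower by edgeR, at a log2 ratio of -0.66 (adjusted p = 0.0116), and Rad21, a cohesin subunit gene, had -0.07 (adjusted p = 0.611).

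Before the hormone meets Dio3 or its receptors it must cross the membrane. Of 6 transporter genes listed, 3 were tested, 1 had a log2 ratio above 0 and 2 below, and edgeR called 0, with 1 at an unadjusted p under 0.05. Slc7a5 encodes LAT1, an amino acid exchanger that also moves thyroid hormone. It had 26.7, 14.0, 11.6 and 28.3 CPM in Rax-SmoCKO replicates 1 to 4, against 26.5, 61.1, 19.9 and 45.5 CPM in control replicates 1 to 4. Rax-SmoCKO replicates 2 and 3 were lowest, whereas replicates 1 and 4 lay inside the control range. For Slc7a5 the log2 ratio was -0.96 (SE 0.35), with an adjusted p of 0.42 in edgeR, and it was -0.49 without the libraries with Y-linked counts. Without the filter on low counts, where edgeR called 289 of 27242 genes, Slc7a5 passed (adjusted p = 0.000113). Its log2 ratio was -0.95 in that fit, but the SE was 0.17. Slc7a8, which encodes the related exchanger LAT2, stood at 0.50 (SE 0.34, edgeR adjusted p = 0.672). Its value was 0.14 without Rax-SmoCKO replicate 3 and 0.82 without control replicate 2. The carrier genes Slc16a10, Slco1c1 and Slc17a4 were too low to test.

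Crym, whose protein holds T3 in the cytosol, had the largest log2 ratio in size of the 9 genes and the widest spread. It had 4.29, 38.2, 9.44 and 4.33 CPM in Rax-SmoCKO replicates 1 to 4, against 1.66, 1.43, 4.34 and 7.86 CPM in control replicates 1 to 4. A single library stood out, as Rax-SmoCKO replicate 2 held 177 Crym counts where its group otherwise held 13 to 35 and control 5 to 28. The groups overlapped. On the log2 scale the ratio was 1.92 (SE 0.72), with a 95% interval of 0.37 to 3.48 and an adjusted p of 0.435 in edgeR. It was 0.66 (adjusted p = 0.719) without Rax-SmoCKO replicate 2 and 0.18 (adjusted p = 0.954) without the 2 libraries with Y-linked counts. Without the filter on low counts, where edgeR called 289 of 27242 genes, Crym passed (adjusted p = 0.000165). Its log2 ratio was again 1.92 in that fit, but the SE was 0.36.

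Markers of some tissues around the retina were high in libraries with high Crym. The 7 genes of periocular mesenchyme (Foxc1, Col1a1, Col1a2, Col3a1, Dcn, Lum and Twist1) summed to 80.2, 304.5, 170.2 and 49.7 CPM in Rax-SmoCKO replicates 1 to 4, against 46.8, 84.2, 55.2 and 151.3 CPM in control replicates 1 to 4. The 3 libraries with most of these counts, Rax-SmoCKO replicates 2 and 3 and control replicate 4, were also the 3 with most Crym, in the same order. Among the rest the order differed. Control replicate 2 came next in mesenchyme genes and held 15935 CPM of lens genes, yet had the least Crym, 1.43 CPM. All 7 mesenchyme genes had log2 ratios above 0, with a median of 1.04. Genes of the pigment epithelium summed to 86.7 to 613.1 CPM in Rax-SmoCKO and 45.2 to 263.9 in control, and Rpe65, a defining marker of the mature layer, was at 0 counts throughout. Blood genes reached 2240 CPM in Rax-SmoCKO replicate 2, with 523.5 to 711.3 in the other Rax-SmoCKO libraries and 507.4 to 841.3 in control. Ttr, which encodes the plasma carrier transthyretin, had 30 counts in Rax-SmoCKO replicate 2, 0 to 3 in the other Rax-SmoCKO libraries and 1 to 4 in control. The part of these tissues in the Crym value was not tested.

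**Figure D4:**
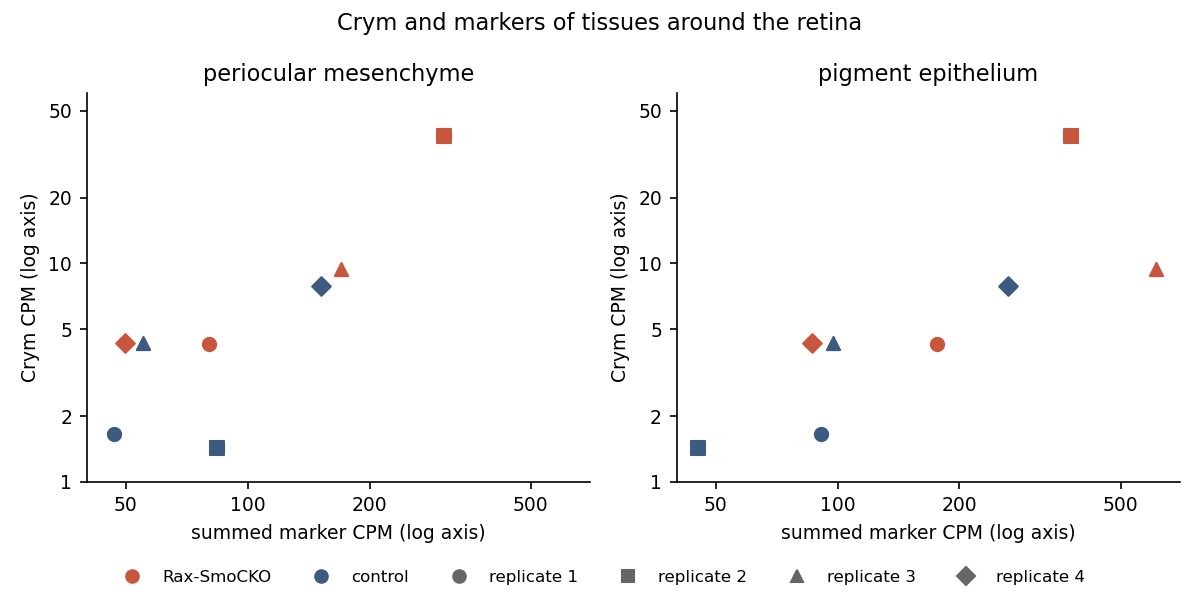
Crym CPM (vertical, log axis) against the summed CPM of periocular mesenchyme markers (left panel) and pigment epithelium markers (right panel; horizontal log axes) in each library, with Rax-SmoCKO in red and control in blue. Rax-SmoCKO replicate 2, the red square, has the highest Crym at 38.2 CPM and the highest mesenchyme sum at 304.5 CPM, whereas the highest pigment epithelium sum, 613.1 CPM, belongs to Rax-SmoCKO replicate 3.

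The genes closest to Crym over the 8 libraries, by the same measure, were Nrp2 (r = 0.97), Rarb (r = 0.96), Col3a1 (r = 0.95), Clmp (r = 0.95) and Cxcl12 (r = 0.95), again as a description with no test. Col3a1, a fibrillar collagen, belongs to the mesenchyme list above. With group means taken away r was 0.93 to 0.96. None of the 5 was called, and Col3a1 had 23.0 CPM in Rax-SmoCKO and 9.81 in control.

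The receptor genes were well measured, and neither passed the test. Thra had 187.1, 204.1, 219.3 and 242.7 CPM in Rax-SmoCKO replicates 1 to 4, against 180.1, 185.7, 174.8 and 215.6 CPM in control replicates 1 to 4. In Thra, 2 Rax-SmoCKO libraries lay above all controls. EdgeR put the log2 ratio at 0.17 (SE 0.09, adjusted p = 0.574), and the 95% interval allows a level of 0.98 to 1.29 times that of control. Thra encodes the main receptor of the early nervous system and also a variant that does not bind hormone, and the annotation holds 4 coding transcripts of it, which were counted together. Nr1d1, a clock gene on the opposite strand, covers its 3′ end. Whether reads were assigned by strand is unknown. Nr1d1 itself averaged 8 counts per library, beside the 817.5 of Thra in Rax-SmoCKO and 694 in control. The shared stretch holds the 3′ end of Nr1d1 too, so its own count may be affected and cannot settle the effect on Thra.

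Thrb had 114.3, 104.3, 135.7 and 162.3 CPM in Rax-SmoCKO replicates 1 to 4, against 114.4, 110.8, 104.3 and 123.3 CPM in control replicates 1 to 4. Rax-SmoCKO replicates 3 and 4 were above every control, and replicates 1 and 2 were within the control range. EdgeR put the log2 ratio at 0.19 (SE 0.12, adjusted p = 0.653), with a level of 0.95 to 1.36 times that of control in the 95% interval. It was 0.06 without Rax-SmoCKO replicate 4, the library also richest in 8 markers of retinal ganglion cells and 9 of photoreceptor precursors, a list that includes Thrb. The ganglion cell genes summed to 4431 CPM there, to 3084 to 3460 in the rest of its group and to 2708 to 3176 in control. The photoreceptor genes summed to 583.7 CPM there, to 422.6 to 513.8 in the rest of its group and to 392.5 to 482.6 in control. Their part in the Thrb value was not tested. The annotation holds 6 coding Thrb transcripts with 5 different transcript starts and 6 different ends. Counts were deposited per gene, so the isoforms of the receptor, one of which is the form of cones, were not separated.

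Thrb was also set beside other genes of young photoreceptors. Thrb and Rxrg, both genes of cone precursors, together gave 588.6 ± 50.2 counts per 1000 counts of the photoreceptor regulators Otx2 and Crx in Rax-SmoCKO and 586.5 ± 37.5 in control (SD, n = 4 each). The ranges, 530.4 to 647.3 for Rax-SmoCKO libraries and 545.9 to 630.8 for control libraries, overlapped. Opn1sw, the S-cone opsin gene, was at 0 counts in all 8 libraries. Each library held 1.68 ± 0.20 Thra counts per Thrb count in Rax-SmoCKO and 1.67 ± 0.07 in control (SD, n = 4 each). The genes closest to Thrb in pattern were Agap1, Map6, Tubb2b, Celf4 and B3galt1 (r = 0.97 to 0.98, and 0.96 to 0.99 with group means taken away, over 8 libraries and with no test). Map6 and Tubb2b encode a microtubule-associated protein and a tubulin of neurons.

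The retinoid X receptors, with which the hormone receptors pair, did not move one way. Rxra had 19.6, 18.4, 18.1 and 16.0 CPM in Rax-SmoCKO replicates 1 to 4, against 18.9, 15.2, 14.3 and 12.4 CPM in control replicates 1 to 4. For Rxra the log2 ratio was 0.26 (SE 0.15, edgeR adjusted p = 0.625), and at 48 to 85 counts in Rax-SmoCKO and 44 to 64 in control its 95% interval reached from -0.07 to 0.58. Rxrb had 48.4, 38.4, 41.8 and 41.7 CPM in Rax-SmoCKO replicates 1 to 4, against 43.1, 49.2, 45.5 and 50.3 CPM in control replicates 1 to 4. In Rxrb, 3 Rax-SmoCKO libraries were below every control and replicate 1 was inside the control range. Its log2 ratio was -0.15 (SE 0.09, edgeR adjusted p = 0.644). Rxrg, which marks cone precursors, had 7.39 CPM in Rax-SmoCKO and 6.66 in control, and its value of 0.14 (SE 0.33, edgeR adjusted p = 0.931) turned to -0.08 without the libraries with Y-linked counts.

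Of the cofactors, the coactivator gene Ncoa1 came nearest to a difference. It had 44.9, 42.1, 41.5 and 42.3 CPM in Rax-SmoCKO replicates 1 to 4, against 34.5, 36.4, 36.5 and 42.7 CPM in control replicates 1 to 4. Control replicate 4 lay among the Rax-SmoCKO libraries and the other 3 controls below all of them. For Ncoa1 the log2 ratio was 0.19 (SE 0.09), with an unadjusted p of 0.0499 and an adjusted p of 0.527 from edgeR. The corepressor gene Ncor1, the most abundant of the 9, had 601.5, 536.9, 525.4 and 541.0 CPM in Rax-SmoCKO replicates 1 to 4, against 548.5, 558.5, 592.4 and 522.2 CPM in control replicates 1 to 4. EdgeR put it at -0.01 on the log2 scale (SE 0.06, adjusted p = 0.972), and with 1623 to 2521 counts per Rax-SmoCKO library the 95% interval was narrow, from 0.91 to 1.08 times the control level. Its 3′ end is covered by Ttc19 on the opposite strand, a gene with 96.5 counts per library. There were 12.9 ± 0.35 Ncor1 counts per Ncoa1 count in Rax-SmoCKO and 14.9 ± 1.83 in control (SD, n = 4 each), with control replicate 4 at 12.2 below all Rax-SmoCKO libraries.

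No gene of the cofactor lists, which include Ncor1 and Ncoa1, passed the test. Of 7 genes of the corepressor complex tested, 2 were above 0 and 5 below, and of 8 coactivators 6 were above 0 and 2 below, with 0 called by edgeR in each list and 1, Ncoa1, at an unadjusted p under 0.05. The histone deacetylase gene Hdac3 stood at a log2 ratio of 0.17 (SE 0.09, edgeR adjusted p = 0.577) and the scaffold gene Sin3a at -0.15 (SE 0.08, edgeR adjusted p = 0.57). The acetyltransferase genes Crebbp and Ep300 stood at 0.14 (SE 0.07, edgeR adjusted p = 0.557) and 0.15 (SE 0.09, edgeR adjusted p = 0.638).

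Klf9, the target gene among the 9, had 23.1, 22.7, 27.2 and 23.0 CPM in Rax-SmoCKO replicates 1 to 4, against 17.2, 19.3, 23.3 and 22.2 CPM in control replicates 1 to 4. The groups overlapped. EdgeR put the log2 ratio of Klf9 at 0.22 (SE 0.13, adjusted p = 0.614), and at 69 to 105 counts in Rax-SmoCKO and 52 to 91 in control the 95% interval allows 0.96 to 1.41 times the control level. A list of 10 hormone response genes known mainly from brain and liver had 7 tested, 6 above 0 and 1 below, and edgeR called 0, with 0 at an unadjusted p under 0.05. Hif3a stood at 0.61 (SE 0.29, edgeR adjusted p = 0.546) and Sema7a at 0.40 (SE 0.28, edgeR adjusted p = 0.686), both at under 25 counts per library on average. Hr and Nrgn had too few counts to test, and Thrsp had 0 in all libraries.

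**Figure D5:**
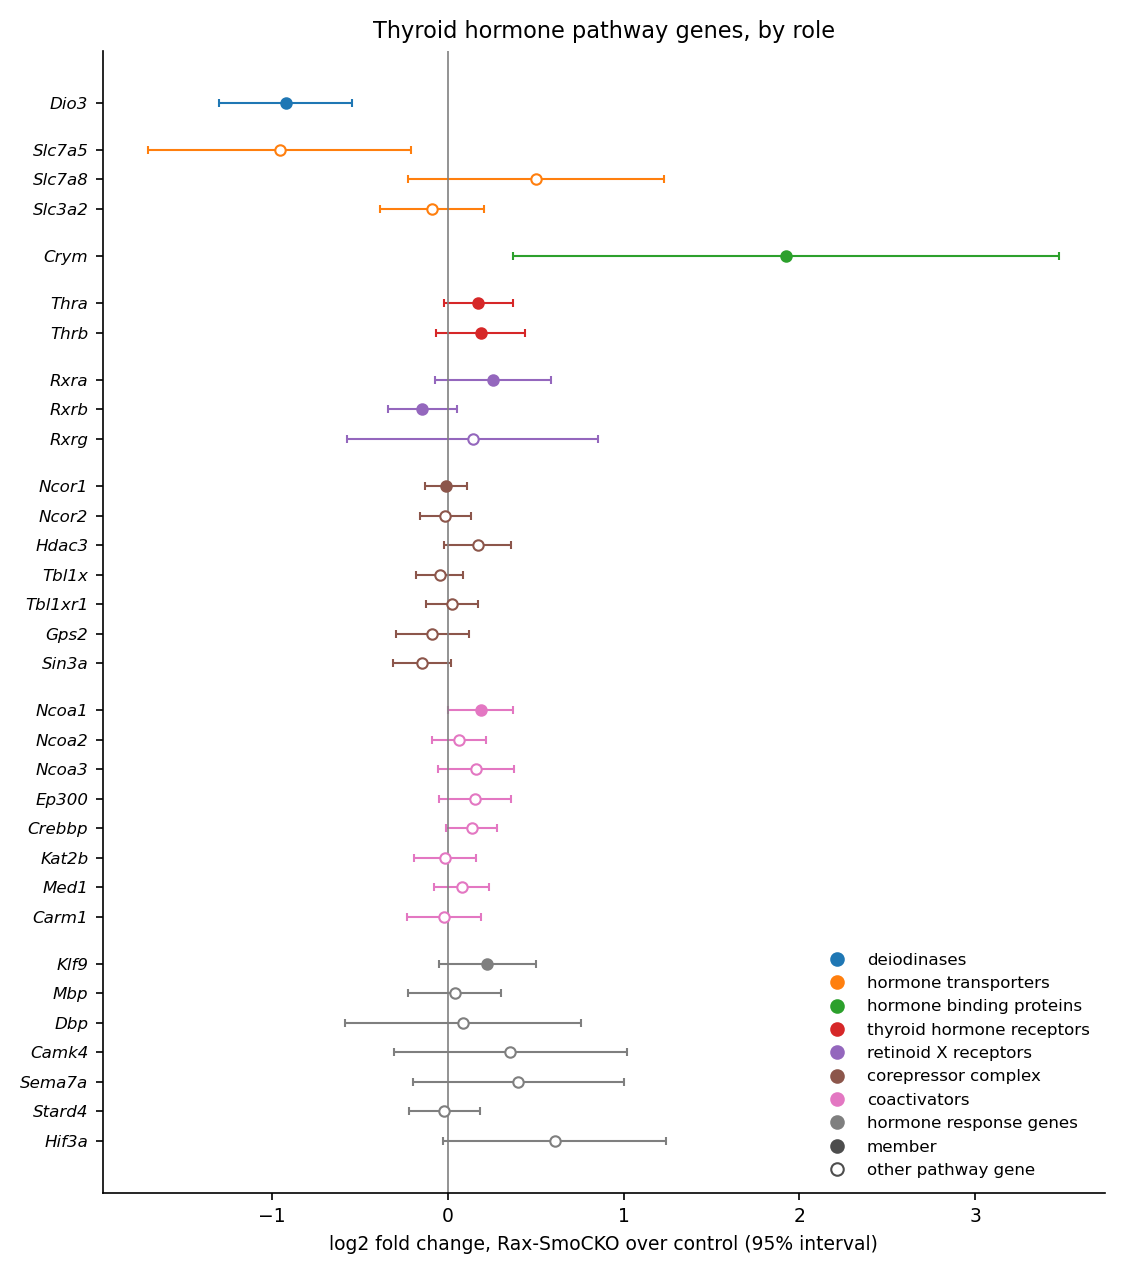
Log2 fold change, Rax-SmoCKO over control, with its 95% interval (horizontal axis) for the 32 tested genes of the thyroid hormone pathway, coloured by role; filled points are the 9 genes described in full. The interval is clear of 0 for Dio3, Slc7a5, Crym and Ncoa1 and crosses 0 for the others, and Crym at 1.92 has the widest interval, from 0.37 to 3.48.

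Over the whole pathway, 32 of 42 listed genes were tested, 20 were above 0 and 12 below, and the median log2 fold change was 0.08. Over all tested genes 49.6% were above 0 and the median was -0.002. At an adjusted p under 0.05 edgeR called 0 of the 32, limma-voom 0 and DESeq2 1, Dio3. At an unadjusted p under 0.05 edgeR gave 2 higher, Crym and Ncoa1, and 2 lower, Dio3 and Slc7a5, beside 4.8% higher and 4.68% lower of all tested genes. Of the 9 genes described in full, 6 were above 0 and 3 below.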

How the data were processed

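Retinas of 4 Rax-SmoCKO and 4 control samples were profiled with the QuantSeq forward kit with molecular identifiers. The methods state 5 Rax-SmoCKO samples, of which 4 were analysed here. Trimmed reads were mapped to mouse and assigned to Ensembl genes by featureCounts by the authors. The submitters' processing notes list GRCm38, mm10 and GRCh38 as builds and, as tools, limma and STAR 2.7.0e. The handling of identifiers and strand was not stated. The deposited values are whole-number counts without scaling. The authors' 2 columns of group means (other values) were not used in tests. Library totals were 3017480 to 4615667 counts, which sets the counting error.

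Counts were tested with edgeR 4.0.16 in R 4.3.3 (TMM, quasi-likelihood, group only, a filter of 5 counts or more in 4 libraries or more, Benjamini-Hochberg over all tested). Standard errors are the absolute log2 fold change over the square root of F. The test was checked on simulated counts. Rows without a symbol, 525 in all, held 0.094% of counts and kept their identifiers. The 9 genes and all lists were chosen with earlier results of these data known, and 4 genes of the lists are not reported here and entered no sum or count of a list. Named are the 9 genes, the 2 other tested genes per role with the smallest p, genes overlapping a 3′ end, Smo, Gli1 and the 5 genes closest in pattern to Dio3, Thrb and Crym (log2 CPM, prior count 2). Dio3os, Ptch1, Hhip, Ttr, Xist and the untested genes were added after their values were seen. The ratios to Dio3os and to progenitor and photoreceptor genes were also added then. Samples were not treated as paired by replicate number in the main test. Alternatives used DESeq2 1.42.0 and limma 3.58.1, other scalings and filters, a replicate block, a sex term and left-out libraries. Positions and transcripts are from GENCODE M21, promoters from RefSeq on GRCm38.p6, and pictures were drawn with matplotlib 3.10.9.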

Additional observations from a re-analysis of the deposited data

Results flagged for a closer look

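In each group of 4 libraries the highest or lowest value was compared with its nearest neighbour, for 18 groups over the 9 genes, and chance alone flags about 1 in 20 such groups. Crym in Rax-SmoCKO replicate 2 stood far above the other Rax-SmoCKO libraries, at 38.2 CPM with 9.44 CPM as the next highest, and the gap took 0.85 of the group's range. Klf9 in Rax-SmoCKO replicate 3 was at 27.2 CPM with 23.1 CPM next, a gap of 0.90 of a range that was itself narrow.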

How the results depend on the processing

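Dio3 kept its direction in all 18 alternatives, with log2 fold changes of -1.04 to -0.72 and adjusted p-values of 1.44e-07 to 0.285. It passed the threshold with DESeq2's Wald test (-0.92), without a filter on low counts (-0.92) and with a replicate block (-0.93, adjusted p = 0.0472). Leaving out 1 library at a time gave Dio3 values of -1.04 to -0.76 and called 0 to 1 of the 9 genes, 0 to 1 of the pathway genes and 12 to 19 of all genes. Genes called of the 9, of the pathway and of all tested numbered 1, 1 and 57 with DESeq2, 2 (Dio3 and Crym), 3 (with Slc7a5) and 289 without a filter and 1, 1 and 38 with the replicate block, while the sex term gave 22 of all genes and the added fold threshold of the study's methods 6. The causes were not tested. Same-numbered libraries correlated at -0.06 to 0.24 in their deviations, and the numbers were not taken as pairs. The value of 0.24 belonged to the libraries numbered 2, where control replicate 2 was also the best match. Whether same-numbered libraries share a litter or batch was not tested. Values near 0 changed sign. Ncor1 was at 0.041 with the sex term, -0.049 to 0.022 with 1 library left out, 0.0073 without the libraries richest in lens genes and 0.044 without those with Y-linked counts. Rxrg was at -0.081 with the sex term, -0.089 to 0.35 with 1 library left out and -0.075 without the Y-linked libraries. Nr1d1 was at 0.18 with limma-voom, -0.43 to 0.56 with 1 library left out and 0.70 without the lens-rich libraries. The other 8 of the 9 genes kept their signs in all alternatives. Scalings moved the median of all genes by less than 0.01. At 14 Crym counts per control library and under 3 Dio2 counts on average, depth limits what these genes can show.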
